A study of Homo sapiens with 2 samples.

Results

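The 51 genes described here encode the machinery that copies DNA: the origin recognition complex, the licensing factors, the MCM helicase and its activators, the replicative polymerases, the sliding clamp and its loader, the flap nuclease and ligase of the lagging strand, and factors for single-stranded DNA, nucleotide supply, fork protection and chromatin. They were chosen by gene symbol. All 51 were found among the 50229 symbols of the deposited table, and all 51 were among the 11645 symbols whose FPKM reached 1 in either library, called the genes tested. FPKM is a count of fragments scaled to transcript length and library depth.

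Both libraries were made from ARP1 cells, an established human myeloma line (myeloma arises from plasma cells). The labels describe 1 as a VCP knockdown, siVCP, and the other as its control, siNC. Poly(A) RNA was read as paired ends. The reagent's sequence, its dose, and the time between knockdown and harvest are not given in the sources used here. The comparison asks how transcripts of the replication machinery differ when VCP, which encodes the ATPase p97, is knocked down. Since each group holds 1 library, nothing was tested and no replicate error exists. Brackets hold 95% intervals for counting error alone. Where 2 values of a gene stand together, the library labelled siVCP comes first.

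VCP went against its label. Its FPKM was 65.9 under the label siVCP and 47.7 under the label siNC, a 1.38-fold higher level in the first [1.33 to 1.43]. Directions below therefore follow the labels, and a loss of VCP transcript was not seen. Estimated counts summed to 68872657 and 72566092. All 10 plasma cell markers exceeded an FPKM of 1, with JCHAIN highest in both libraries at 485 and 712. Summed over 5 markers each, T cell, myeloid, stromal, epithelial and erythroid genes reached at most 3.02, the highest members being TRAC (1.55 and 2.51), CD68 (1.10 and 1.41), COL1A1 (0.102 and 0.253), KRT18 (1.66 and 1.61) and HBA1 (0.385 and 0.564). All 5 adipocyte markers were listed at 0 in both libraries, although the extraction protocol in the labels speaks of adipose material.

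DNA replication starts at origins, where the origin recognition complex, CDC6 and CDT1 load the MCM helicase in G1 phase. In S phase CDC45 and the GINS complex join the helicase to form the CMG complex, and the polymerases follow it, held on DNA by the PCNA clamp. E2F transcription factors are known to drive many of these genes as cells enter S phase. The p97 ATPase, with UFD1 and NPLOC4, is known to pull the ubiquitin-marked CMG complex off chromatin when forks meet, and to help remove CDT1 after its ubiquitylation. Those actions concern proteins, which were not measured here.

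Replication transcripts stood at close levels in both libraries, and most were slightly higher under the label siVCP. The level ranged from 0.746 for ORC4 to 131 for MCM7 in that library, and from 1.03 to 116 for the same 2 genes in the library labelled siNC. For 37 of the 51 genes neither library exceeded the other by 25% in plain FPKM, a share not taken over all genes tested. By the log2 ratio defined below, 17.6% of the list was at least 25% higher under the label siVCP, against 13.9% of all genes tested. For at least 25% lower the shares were 3.92% and 18.3%. In bulk RNA, a different share of cells in S phase and a different amount of RNA per such cell cannot be told apart. MKI67, a gene of proliferating cells that was singled out after its values were seen, went against most of the list: its FPKM was 14.7 and 35.5, a 2.41-fold lower level [2.32 to 2.503] under the label siVCP. Its relation to the list was not tested. Differences were also taken as log2((FPKM labelled siVCP + 1)/(FPKM labelled siNC + 1)), called the log2 ratio, which understates the difference of low genes. On that scale 2 genes, POLD3 and FEN1, were higher by 1.5-fold or more. That is 3.92% of the list, near the 4.53% of all genes tested. None was at least 1.5-fold lower, against 5.87% of all genes tested. By plain FPKM ratio ORC5 also passed on the higher side, for 3 genes against a background of 6.89%. RFC1 alone passed on the lower side by plain ratio, against a background of 12.3%.

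**Figure D1:**
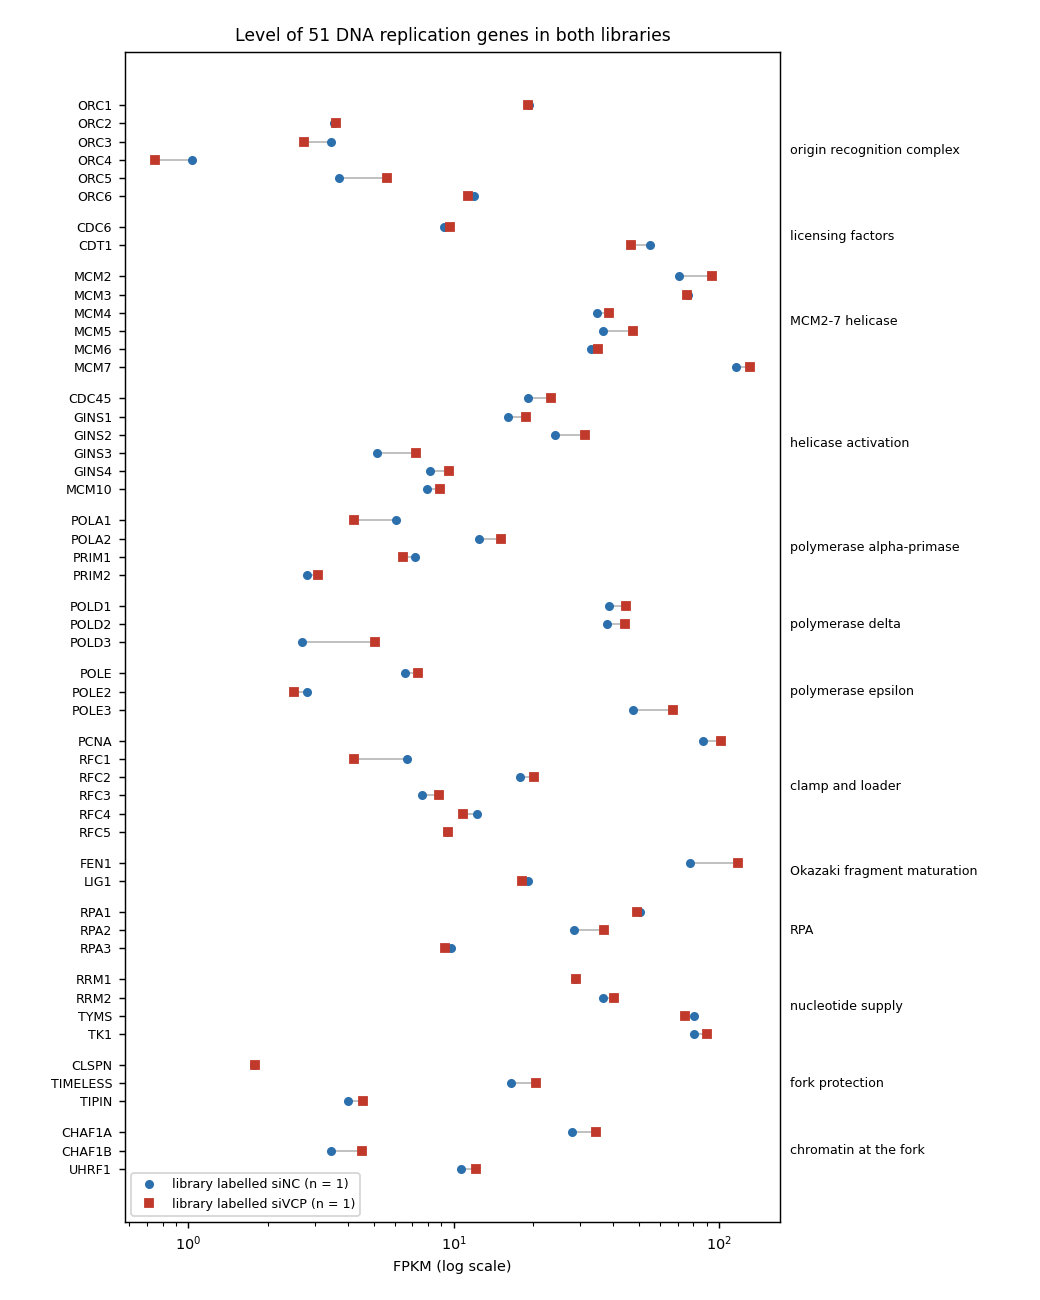
FPKM on a log axis of each of the 51 replication genes in the library labelled siVCP (red squares) and the library labelled siNC (blue circles), grouped by role, with 1 library per group. Most squares lie just to the right of their circle, POLD3 has the widest gap to the right (5.07 against 2.69) and RFC1 the widest gap to the left (4.21 against 6.65).

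The median log2 ratio of the list was 0.15, and the middle of the list, from its lower to its upper quartile, ran from -0.02 to 0.27. Over all genes tested the median was -0.02. Of the 51 genes, 36 had a log2 ratio above 0, or 70.6%, against 47.2% of all genes tested. Genes that reached an FPKM of 5 were themselves shifted upwards, with 55.8% above 0 and a median of 0.05. Of the 43 replication genes at that level, 72.1% were above 0 and their median was 0.17. The counting interval of the plain fold lay above 1 for 29 genes, or 56.9%, against 28.5% of all genes tested. It lay below 1 for 7 genes, or 13.7%, against 32.0%. The remaining 15 intervals covered 1. Intervals narrow with counts, and the list had a median FPKM of 16.1 under the label siNC, against 5.13 over all genes tested. The background shares of the intervals were not matched for level. Summed over the list, the FPKM was 1519 against 1337. The order of levels was nearly the same in both, with a Spearman's rho of 0.99 across the 51 genes, which share both libraries.

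**Figure D2:**
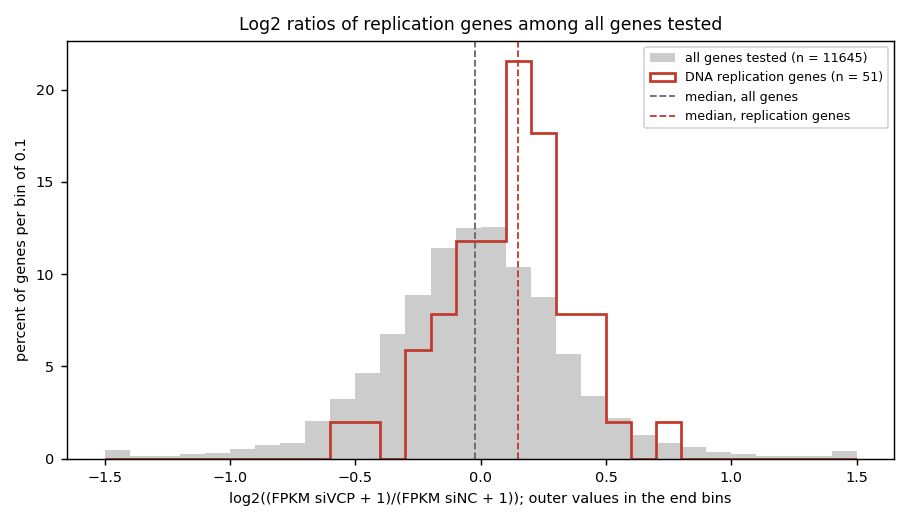
Percent of genes per bin of 0.1 of the log2 ratio for all 11645 genes tested (grey) and for the 51 replication genes (red outline), with dashed lines at the medians of -0.02 and 0.15. The red outline is narrower than the grey one and has its peak to the right of 0.

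Some promoters of the list hold short words that E2F factors bind, a feature the choice by symbol did not use. RefSeq promoter sequences (GRCh38.p14; 250 bases before to 50 after the start) were matched for 45 of the 51 genes. The words searched on both strands were TTTCGCGC, TTTGGCGC, TTTCCCGC and TTTGCCGC, which can overlap each other. At least 1 of them stood in the promoter of 21 of these 45 genes, or 46.7%. The share was 3.31% of all 35116 promoters and 7.30% of the 8135 genes tested that had one. For comparison, CCAAT, bound by NF-Y, was found in 28 of the 45 genes (62.2%, against 34.6% of all promoters and 43.7% of the genes tested that had one). TTTGAA, the core of the CHR element of mitotic genes, was found in 2 (4.44%, against 15.2% and 13.1%). A match is a description of these letters and not a shown binding site.

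Windows of 30 bases around a word are shown for members from successive steps, which include both higher and lower genes. Capitals mark the E2F word, read 5′ to 3′ along the gene's strand. The MCM2 window is chr3:127598402-127598431 (plus strand), and its word begins at base 3 of the transcript. The GINS2 window is chr16:85688967-85688996 (minus strand), 31 bases before the start, and the GINS3 window is chr16:58392455-58392484 (plus strand), 5 bases before it. The PCNA window is chr20:5126663-5126692 (minus strand), 59 bases before the start. The POLE window is chr12:132687342-132687371 (minus strand), 18 bases before the start. The POLA1 window is chrX:24693770-24693799 (plus strand), 137 bases before the start.
MCM2: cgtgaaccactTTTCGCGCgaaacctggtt
GINS2: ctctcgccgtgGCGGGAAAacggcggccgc
GINS3: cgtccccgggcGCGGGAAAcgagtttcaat
PCNA: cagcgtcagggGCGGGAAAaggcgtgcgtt
POLE: tgggtgggagcGCGCCAAAtttctcccctg
POLA1: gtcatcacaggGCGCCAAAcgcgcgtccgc
GINS2, GINS3 and PCNA carry the same word, GCGGGAAA, and had log2 ratios of 0.36, 0.42 and 0.22. CDT1, CLSPN, MCM7 and RFC3 carry it too, at -0.24, 0.01, 0.17 and 0.19. Its reverse complement, TTTCCCGC, stood in the promoters of MCM3 (-0.002) and LIG1 (-0.07). POLE, POLA1 and GINS1 also share a word, GCGCCAAA, and their log2 ratios were 0.14, -0.43 and 0.22. Its reverse complement, TTTGGCGC, stood in the promoters of CDC6 (0.07) and MCM6 (0.09). The 21 genes with a word had a median log2 ratio of 0.14 and the 24 genes with a promoter and no word had 0.13. The 6 genes without a promoter entry, POLD3 among them, had a median of 0.29. FEN1 and RFC1, which had no such word in this window, had the highest and the lowest log2 ratio of the 45 genes with a promoter entry, at 0.60 and -0.55.

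The origin recognition complex, which marks origins and loads the helicase, spanned a wide range of levels and showed no common direction. Its 6 genes had a median log2 ratio of -0.04. ORC1, the subunit whose level cycles in human cells, was highest, with an FPKM of 19.1 and 19.2, and ORC6 followed at 11.3 and 11.9. Both counting intervals covered 1. ORC5 had 5.63 and 3.71, a 1.52-fold higher level in the library labelled siVCP [1.31 to 1.76], while ORC2 had 3.59 and 3.53. ORC3 had 2.73 and 3.45, which is 1.27-fold lower [1.05 to 1.52]. ORC4 was the lowest gene of the whole list at 0.746 and 1.03, 1.39-fold lower [1.11 to 1.73], and passed the FPKM filter through the library labelled siNC alone. The highest subunit stood 25.6-fold above the lowest under the label siVCP and 18.6-fold under the label siNC.

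The licensing factors CDC6 and CDT1, which bring the helicase to the origin, lay on either side of 0. CDC6 had an FPKM of 9.73 and 9.20, with an interval that covered 1. CDT1 had 46.6 and 55.2, a 1.19-fold lower level in the library labelled siVCP [1.13 to 1.248]. GMNN, which encodes geminin, the inhibitor of CDT1, had 9.36 and 8.88, a log2 ratio of 0.07.

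All but 1 of the MCM2-7 genes, which encode the ring of the replicative helicase, were higher in the library labelled siVCP, and MCM3 had near-equal levels. MCM2 had an FPKM of 94.0 and 70.8, 1.33-fold higher [1.29 to 1.37]. MCM5 had 47.5 and 36.6, 1.30-fold higher [1.253 to 1.34]. The differences of the other members were smaller: MCM7 stood at 131 and 116 (1.13-fold), MCM4 at 38.6 and 34.7 (1.11-fold) and MCM6 at 35.1 and 33.0 (1.06-fold), with intervals above 1. MCM3 had 76.2 and 76.3 [0.963 to 1.04 for the fold]. The group median was 0.16. The highest and lowest subunits of this ring, in which the proteins stand in equal numbers, were 3.74-fold and 3.52-fold apart in the 2 libraries. MCM2 ranked above MCM3 under the label siVCP and below it under the label siNC.

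The 6 list members that help turn the loaded ring into a working helicase were all higher in the library labelled siVCP. Their median log2 ratio was 0.25, with a range from 0.14 to 0.42. Each of their intervals lay above 1. GINS3 had an FPKM of 7.19 and 5.13, 1.40-fold higher [1.26 to 1.57], and GINS2 had 31.3 and 24.1, 1.30-fold higher [1.22 to 1.38]. GSE1 overlaps GINS2 on the opposite strand and had 4835 and 5775 counts, against 8319 and 6764 for GINS2. CDC45 had 23.4 and 19.1, 1.23-fold higher [1.14 to 1.32]. GINS4 (9.58 and 8.12) and GINS1 (18.8 and 16.1) differed by 1.18-fold and 1.17-fold. MCM10, a scaffold needed for helicase activation, had the smallest difference, at 8.85 and 7.94 (1.11-fold). None reached 1.5-fold, and all 6 kept the same order of levels in both libraries.

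Subunits of polymerase alpha-primase, which makes the RNA-DNA primers, differed in direction. POLA1, the catalytic polymerase subunit (ENSG00000101868; GRCh38 chromosome X, 24693909 to 24996986, plus strand), had an FPKM of 4.23 and 6.06. It was thus 1.43-fold lower in the library labelled siVCP [1.29 to 1.60]. The pseudogene EEF1B2P3, on the opposite strand within POLA1, had more counts than POLA1 itself (4952 and 5140, against 2318 and 3507), and without stated strand its reads cannot be told from those of POLA1. POLA2, the accessory subunit, went the other way at 15.1 and 12.5, 1.21-fold higher [1.13 to 1.30]. The primase genes PRIM1 (6.43 and 7.13) and PRIM2 (3.09 and 2.81) had intervals that covered 1. PRIM1 overlaps NACA on the same strand, which had 13246 and 16413 counts.

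Polymerase delta, the main lagging-strand polymerase, held the largest difference of the list. POLD3, an accessory subunit (ENSG00000077514; chromosome 11, 74493851 to 74669117, plus strand), had an FPKM of 5.07 and 2.69. That is 1.89-fold higher in the library labelled siVCP [1.64 to 2.17], a log2 ratio of 0.72, which exceeded 97.3% of all genes tested. The counts behind it were 2306 and 1291, and a same-strand row that overlaps POLD3 held 0 and 15. POLD1, the catalytic subunit, had 44.5 and 38.5 (1.16-fold higher [1.11 to 1.21]) and POLD2 had 44.1 and 37.7 (1.17-fold higher [1.11 to 1.23]). POLD1 and POLD2 thus had near-equal levels in each library, and POLD3 lay far below both. The highest-to-lowest gap of the group was 14.3-fold in the library labelled siNC and 8.77-fold in the library labelled siVCP. POLD4, a further subunit gene of this polymerase, was not a member of the list and went the other way. Its FPKM was 5.29 and 7.74, 1.46-fold lower in the library labelled siVCP [1.27 to 1.68], a log2 ratio of -0.47. The subunit genes of polymerase delta thus did not all share a direction.

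In polymerase epsilon, which copies the leading strand, the small histone-fold subunit gene POLE3 had the highest level, 67.4 and 47.7. It was 1.41-fold higher in the library labelled siVCP [1.34 to 1.49]. The catalytic subunit gene POLE had 7.32 and 6.54, 1.12-fold higher [1.06 to 1.18]. POLE2 had 2.50 and 2.81, with an interval that covered 1. POLE3 also belongs to a chromatin remodelling complex, and its level was 26.9-fold above that of POLE2 under the label siVCP and 17.0-fold under the label siNC.

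Among the clamp and clamp loader genes, PCNA was higher and the large loader subunit RFC1 lower in the library labelled siVCP. PCNA, the sliding clamp, had an FPKM of 102 and 87.0, 1.17-fold higher [1.11 to 1.23]. RFC1 (ENSG00000035928; chromosome 4, 39287456 to 39366375, minus strand) had 4.21 and 6.65. It was 1.58-fold lower [1.42 to 1.75], the lowest log2 ratio of the list at -0.55, and 6.91% of all genes tested were lower still. The small subunits did not share that difference: RFC2 had 20.2 and 17.9 (1.13-fold higher), RFC3 had 8.83 and 7.63 (1.16-fold higher), and RFC5 had 9.51 and 9.48. RFC4 had 10.9 and 12.3, 1.13-fold lower [1.02 to 1.253]. It overlaps EIF4A2 on the opposite strand, whose FPKM was 29.5 and 36.1. RFC1 was the lowest of the 5 loader subunits in both libraries.

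FEN1 and LIG1 finish Okazaki fragments, the first by cutting the displaced flap and the second by sealing the nick. FEN1 (ENSG00000168496; chromosome 11, 61792911 to 61797238, plus strand) had an FPKM of 118 and 77.8, 1.52-fold higher in the library labelled siVCP [1.46 to 1.58], with counts of 21437 and 14884. LIG1 had 18.1 and 19.1, with an interval that covered 1. FEN1 overlaps FADS2 on the same strand, but that row had only 1012 and 1235 counts. The RPA genes encode the trimer that coats single-stranded DNA. RPA2 had 36.8 and 28.5, 1.29-fold higher [1.20 to 1.39], while RPA1 (49.1 and 50.3) and RPA3 (9.30 and 9.75) had intervals that covered 1.

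**Figure D3:**
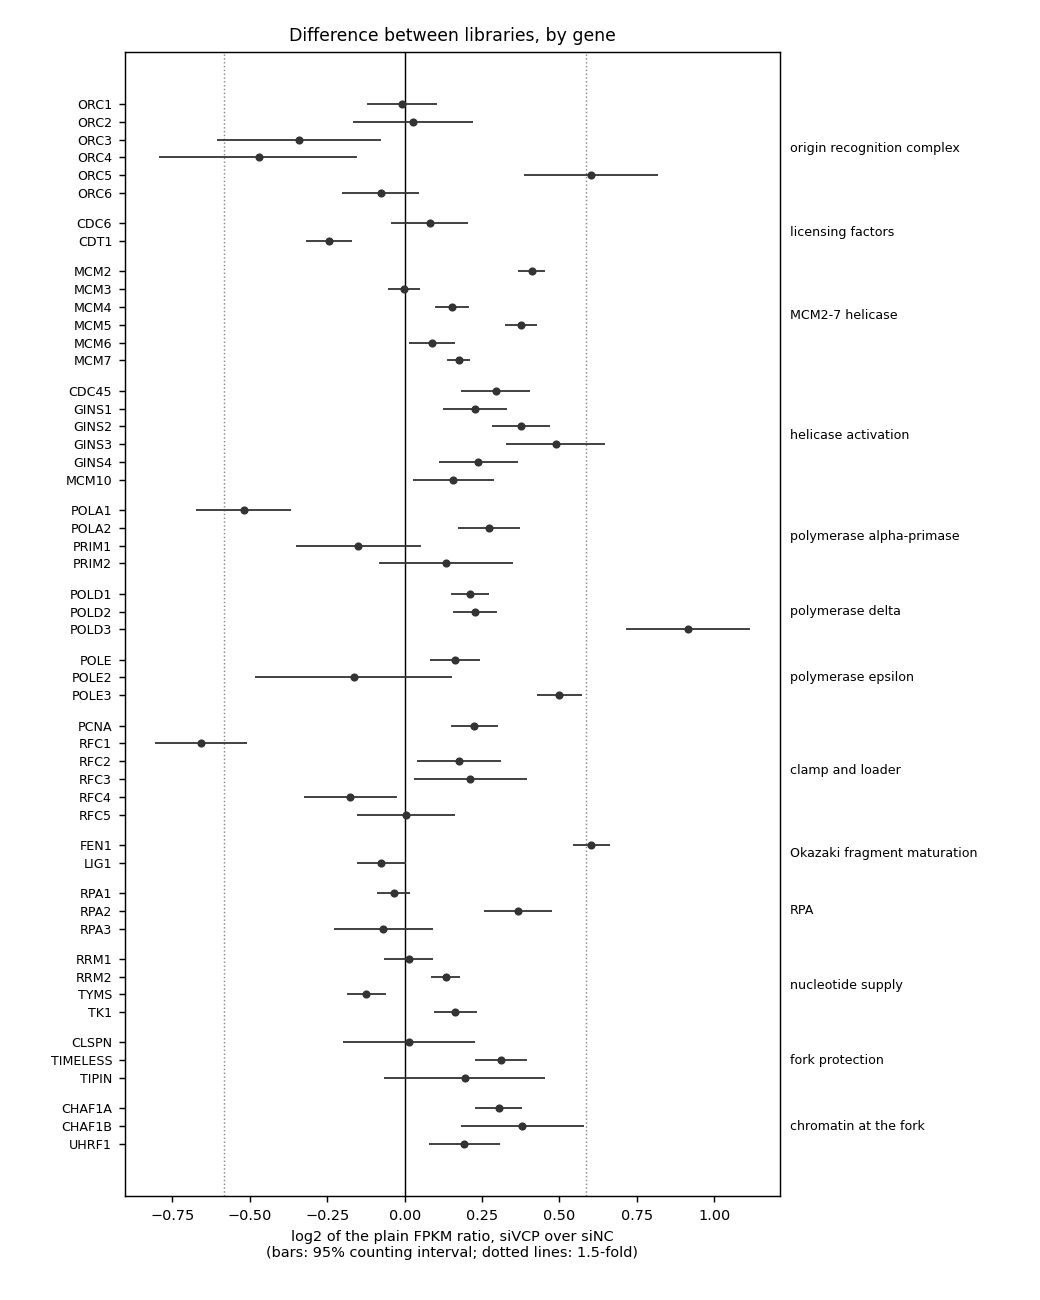
Log2 of the plain FPKM ratio, library labelled siVCP over library labelled siNC, for each of the 51 genes, with bars for the 95% counting interval and dotted lines at 1.5-fold in either direction. POLD3, FEN1 and ORC5 are the points right of the upper line and RFC1 is the point left of the lower one.

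Genes of nucleotide supply differed little. TK1, which salvages thymidine, had an FPKM of 90.3 and 80.7, 1.12-fold higher in the library labelled siVCP [1.07 to 1.17]. TYMS, which makes thymidylate, had 74.3 and 80.9, 1.09-fold lower [1.04 to 1.14], so that TK1 and TYMS exchanged places as the highest of the group. The ribonucleotide reductase subunits RRM2 (40.2 and 36.6) and RRM1 (28.8 and 28.6) were 1.10-fold and 1.01-fold higher, the latter with an interval that covered 1. TYMSOS and ENOSF1 lie on the strand opposite TYMS and had at most 540 counts.

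Fork protection and chromatin genes lay at or above equal levels. TIMELESS had an FPKM of 20.5 and 16.5, 1.24-fold higher in the library labelled siVCP [1.17 to 1.31]. Its partner TIPIN had 4.57 and 3.998, and CLSPN, the adaptor that activates the checkpoint kinase CHK1, had 1.79 and 1.77. Intervals of TIPIN and CLSPN covered 1. The pseudogene RPL9P25 overlaps TIPIN on the same strand and had 366 and 125 counts. CHAF1A and CHAF1B encode subunits of the chaperone CAF-1, which deposits histones behind the fork. They were higher by like factors, CHAF1A at 34.5 and 28.0 (1.23-fold [1.17 to 1.30]) and CHAF1B at 4.50 and 3.46 (1.30-fold [1.14 to 1.49]). MORC3 overlaps CHAF1B on the same strand and went the other way, with 522 and 1121 counts against 1898 and 1539 for CHAF1B. UHRF1, which reads hemimethylated DNA and recruits DNMT1, had 12.2 and 10.6 (1.14-fold [1.06 to 1.24]).

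Over all genes tested, log2 ratios followed transcript length and GC content, so both are given beside the list. In the quintile of genes with the longest transcripts (over 5438 bases) the median of all genes was -0.16, and the 3 list members there, POLE, ORC4 and POLA1, had 0.14, -0.22 and -0.43. In the quintile with the shortest transcripts (up to 1863 bases) the median of all genes was 0.08, and that of 10 list members was 0.04. In the 3 quintiles between, medians of all genes were 0.07, -0.00 and -0.05, and those of 12, 13 and 13 list members were 0.25, 0.17 and 0.14. Across the 51 genes Spearman's rho of the log2 ratio was -0.08 with length and 0.33 with GC content, against -0.26 and 0.30 over 9674 genes. RFC1 and POLA1 combined long transcripts (4886 and 5486 bases) with a low GC content of 41.7% and 42.9%. POLD3 had a GC content of 43.0% and 3821 bases. The part of length and GC content in the differences was not tested.

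**Figure D4:**
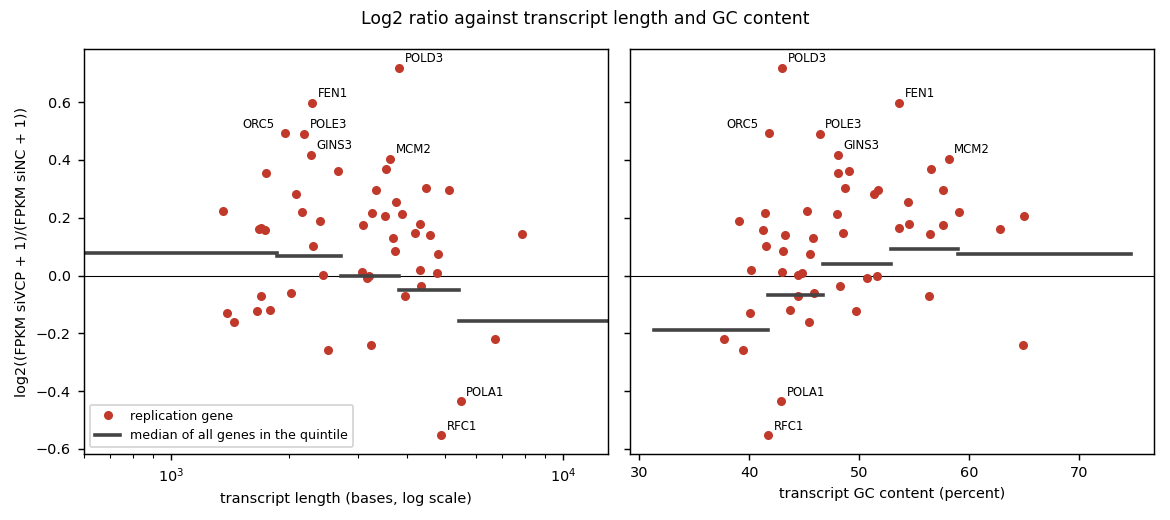
Log2 ratio of the 51 replication genes (red points) against transcript length on a log axis and against GC content, with dark lines for the median of all genes in each quintile. The medians of all genes go from 0.08 to -0.16 with length, while list members in the 3 middle quintiles have medians of 0.14 to 0.25.

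A further 93 genes of DNA replication, in 6 lists, were set beside the 51. Of these, 87 passed the FPKM filter, 0 were 1.5-fold or more higher by log2 ratio, 4 were 1.5-fold or more lower, and the median was 0.06. The shares were 0% and 4.60%, against 4.53% and 5.87% of all genes tested. By plain ratio 3 were higher (3.45%, against 6.89%) and 9 lower (10.3%, against 12.3%). Of the 4 lower genes, TOP2B (-0.85) and TOP2A (-0.83) encode type II topoisomerases, RBL2 (-0.72) encodes the pocket protein p130 of the DREAM repressor, and DNA2 (-0.60) encodes a nuclease-helicase. TOP2A had an FPKM of 18.3 and 33.2, and TOP2B 10.5 and 19.7. In the list of other replisome subunits CHTF18, of the alternative clamp loader, and CHTF8 were highest, at 0.49 and 0.21.

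In the list of initiation kinases and cofactors, CCNE1 (cyclin E1) and LRWD1 were highest, at 0.53 and 0.52. TOPBP1 and RIF1 were lowest, at -0.48 and -0.36. Among the E2F and DREAM regulators E2F4 (0.29) and E2F6 (0.26) stood opposite RBL2 and E2F7 (-0.43). Among other nucleotide enzymes UMPS (0.47) and NME1 (0.42) were highest and RRM2B (-0.58) and DCK (-0.42) lowest. Histone supply genes ran from -0.39 for RBBP4 and 0.03 for CABIN1 to 0.13 for ASF1B and 0.23 for HIRA. The list of genes linked to p97 at replicating chromatin, not all of which act in replisome unloading, had a median of 0.19. Its highest members were UFD1 at 0.58 and LRR1, the substrate receptor that marks the CMG complex, at 0.52, and NPLOC4 had 0.49. The ligase scaffold gene CUL4B (-0.52) and the p97 adaptor gene UBXN7 (-0.44) were lowest. LRR1 had an FPKM of 9.10 and 6.07, a 1.501-fold higher level by plain ratio in the library labelled siVCP.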

How the data were processed

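Poly(A) RNA of ARP1 cells was sequenced as 1 library labelled siVCP and 1 labelled siNC. FPKM values and estimated counts per gene were deposited by the authors. HISAT2 2.0 and StringTie 1.3.0 are named in the submitters' processing notes, without role or order. The sources used here give no build, annotation or strandedness. For 42 of the 51 genes the start or end equals that in GENCODE 29 (GRCh38), so coordinates are given as GRCh38.

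Rows with a count of 0 had their FPKM set to 0, and rows sharing a symbol were summed. Symbols had to reach an FPKM of 1 in either library. Low counts favour multiples of 4 (under the label siVCP, 1205 rows hold 4, 417 hold 3 and 244 hold 5). From this it was inferred, and no source states, that 1 fragment adds about 4 counts. Intervals are exact conditional binomial 95% intervals from counts divided by 4, carried over to the FPKM fold. They speak for counting error alone, and reads lacking molecular identifiers need not be separate molecules. Replication genes had 555 to 47546 counts. No count model was run, as each group has 1 library.

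Members, roles, the further replication genes and the marker lists were chosen with earlier results of these data known. Any member could be named. Of the other lists, the 2 highest and 2 lowest genes were named, with VCP, UFD1 and NPLOC4 and the highest marker of each cell type. MKI67, GMNN, DNA2 and POLD4 were added after their values were seen. Lengths and GC content are of the longest basic protein-coding transcript. Other settings were pseudocounts of 0.1 and 5, no filter, a minimum FPKM of 5, equal sums, ratios centred on 0, 1 row per symbol (the highest), CPM from counts, and thresholds of 25% and 2-fold. Leaving out members with a same-strand overlap was chosen after seeing the data. Interval and ratio steps were tested on simulated data. Scripts ran in Python 3.11.15 with scipy 1.17.1, pandas 2.3.3 and numpy 2.4.6, and figures used matplotlib 3.10.9.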

Additional observations from a re-analysis of the deposited data

How the results depend on the processing

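No paired analysis was possible because there was 1 library a group, which also meant that none could be omitted. Shares in brackets are of all genes tested under the same setting. The 2 replication genes at least 1.5-fold higher became 0 with a pseudocount of 5 (1.40%), 9 at a threshold of 25% (17.6% of the list, against 13.9%), 0 at 2-fold (1.05%) and 0 of the 41 without a same-strand overlap, which leaves out POLD3 and FEN1. The 0 genes at least 1.5-fold lower became 1 with a pseudocount of 0.1 (1.96% of the list, against 11.6%) and 2 at a threshold of 25% (3.92%, against 18.3%). With CPM from the counts the median of the list was 0.22 in place of 0.15, while that of all genes tested was 0.03 in place of -0.02. CPM also gave 0.53 for VCP and medians of 0.23 for the MCM2-7 genes, 0.22 for polymerase epsilon, 0.028 for RPA and 0.14 for nucleotide supply. The other 8 alternatives left the median of the list within the counting interval of the gene at its middle. That interval belongs to 1 gene and does not measure the spread of a median. Of 400 recomputed ratios of single members 386 did not move beyond counting error. These include the ratios with no filter, a minimum FPKM of 5 and 1 row per symbol. Those settings returned the main value for each member kept, so they say nothing of stability. ORC1 and MCM3 changed sign with equal sums, with a median ratio of 0 and with CPM, and RPA1 with CPM. Without same-strand overlaps the medians were -0.43 for polymerase alpha-primase (POLA1 alone), -0.079 for clamp and loader and -0.072 for Okazaki fragment maturation (LIG1 alone). With a minimum FPKM of 5 the polymerase epsilon median was 0.32, and Spearman's rho of the list with GC content was 0.21. A pseudocount of 5 gave 0.17 for chromatin genes. Among the further replication genes, the 0 higher and 4 lower became 5 and 8 with CPM (6.51% and 7.66%) and 2 and 9 with a pseudocount of 0.1 (6.61% and 11.6%). A pseudocount of 5 left 2 lower (1.21%), and equal sums and a median ratio of 0 each gave 1 higher (the first against 5.04%). The cause of these shifts was not tested. Depth limits ORC4, which had 555 and 806 counts, the most.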
